A study of Mus musculus with 11 samples.

Results

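The miR-29 family was followed in miRNA profiles of mouse embryonic stem (mES) cells with and without Trim71. Its members were taken by name as every row of hairpins miR-29a, miR-29b and miR-29c, and 3 of the 592 miRNAs in the table met this rule: miR-29a-3p, miR-29b-3p and miR-29c-3p. Each is the 3p arm of its hairpin, and the 5p arms were not analysed here. The profiles come from male C57BL/6 mES cells with a floxed Trim71 gene and a CreERT2 recombinase expressed from the Rosa26 locus. The genotype labelled Trimfl/fl (Trim71fl/fl here) keeps Trim71, and the genotype labelled Trim-/- (Trim71-/- here) arose from the same cells by 4-hydroxytamoxifen, given per the labels at 500 nM for 2 days and followed by at least 7 days of culture. Both genotypes therefore carry the recombinase and differ in whether the floxed exon was excised. They also differ in treatment, since per the study's methods the control cells received DMSO in place of 4-hydroxytamoxifen. Genotype and treatment thus coincide, and an effect of the treatment itself was not tested. Both genotypes were grown in serum and LIF and sorted for the surface antigen SSEA-1 before harvest. There were 5 Trim71-/- and 6 Trim71fl/fl libraries from 2 clones. A day number joins 1 library of each genotype from the same clone, which gives 3 pairs of clone 1 (days 1, 5 and 6) and 2 pairs of clone E3 (days 3 and 4).

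The question put to the data was how abundant miR-29 was in these cells and whether Trim71-/- differed from Trim71fl/fl within the same-day pairs. MicroRNAs are short RNAs that guide Argonaute proteins to complementary sites in mRNAs, mostly by their seed, bases 2 to 8 from the 5′ end. miR-29 is known for repressing the DNA methyltransferases Dnmt3a and Dnmt3b, TET enzymes and thymine DNA glycosylase, and collagens and other matrix genes. It is known as a family of low abundance in pluripotent cells that rises as cells differentiate. Trim71 is an RNA-binding protein and ubiquitin ligase of stem cells and early embryos, and its own mRNA is a classical target of let-7. The mRNA of Trim71 was not part of these profiles, so the genotype labels could not be checked on it.

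The mature sequences are shown because the members differ in only a few bases outside the seed, which bears on how well their reads can be told apart. They were copied from RefSeq (GRCm38.p6), which held an entry for 3 of 3 members, and the seed is in capitals.
miR-29a-3p: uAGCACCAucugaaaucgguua
miR-29b-3p: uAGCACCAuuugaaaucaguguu
miR-29c-3p: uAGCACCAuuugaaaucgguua
All 3 members share the seed. Of 1679 mature mouse miRNAs in the RefSeq table, 3 had this seed, and these were the 3 members, all of them in the profiles. Positions below count from 1 at the 5′ end, with the base of the first-named member first. miR-29a-3p and miR-29c-3p, both 22 bases long, differ by the single substitution C10U. Over the first 22 bases miR-29a-3p differs from miR-29b-3p by C10U, G18A, U21G and A22U, and miR-29b-3p differs from miR-29c-3p by A18G, G21U and U22A. miR-29b-3p has 23 bases and ends in a sequence known to direct it to the nucleus.

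The members come from 4 hairpins in 2 clusters, one on chromosome 6 and one on chromosome 1 (GRCm38, which is mm10). Mir29a lies at chr6:31062660-31062747 on the minus strand and overlaps no other gene of GENCODE M21. Mir29b-1 lies at chr6:31063023-31063093 on the same strand, 275 bases away, and overlaps the lincRNA Gm27019 by 2 bases. Mir29b-2 lies at chr1:195037040-195037120 and Mir29c at chr1:195037547-195037634, both on the plus strand and 426 bases apart. Both lie in an exon of the noncoding gene A330023F24Rik and, on the opposite strand, in an annotated UTR of Cd46, which encodes a complement regulator. The mature miR-29b-3p of both copies is the same sequence, so the row of miR-29b-3p adds up whatever the cluster on chromosome 6 and the cluster on chromosome 1 yield. miR-29a-3p is encoded on chromosome 6 alone and miR-29c-3p on chromosome 1 alone. How reads of these members, which differ by 1 base, were assigned was not tested.

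All values are the deposited ones, on the scale of normalised read counts after a batch correction by the authors, with values under 1 set to 1. The summed values of a library ranged from 3751519 to 5551715 in the 5 paired Trim71-/- libraries and from 2742673 to 4332525 in the 5 paired Trim71fl/fl libraries. The sum in Trim71-/- was 2.02 times that in Trim71fl/fl on day 5 and between 0.866 and 1.16 times on the other days. The miR-290 to miR-295 and miR-302 clusters, the defining miRNAs of mES cells, made up between 55.5% and 59.8% of each library. Before values under 1 were set to 1, the sum of both same-day libraries was a constant for each of the 3 members, so that a high Trim71fl/fl value comes with a low Trim71-/- value on that day and each pair holds 1 independent difference. For these members the SDs of both genotypes are therefore not separate observations. The Trim71fl/fl library of day 2 has no partner and equals the mean of the other Trim71fl/fl libraries before the floor in all 592 miRNAs within 0.1%, so it was left out of the tests.

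miR-29b-3p and miR-29a-3p were in the upper part of the table by abundance and miR-29c-3p in the lower part. Over the 10 paired libraries the mean level was 892 for miR-29b-3p, 145th of 592, and 669.5 for miR-29a-3p, 164th. miR-29c-3p had a mean of 27.2 and was 465th. The rank within a library ranged from 123 to 234 for miR-29a-3p, from 93 to 586 for miR-29b-3p and from 402 to 564 for miR-29c-3p. As a share of the library's summed value, miR-29a-3p took between 0.00469% and 0.0393%, with a median of 0.0167%. The median share was 0.0214% for miR-29b-3p and 0.000672% for miR-29c-3p.

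The order of the members was clear only for miR-29c-3p. In Trim71fl/fl, miR-29a-3p was between 17.5 and 29.03 times as high as miR-29c-3p, and miR-29b-3p between 22.4 and 61.5 times as high. miR-29a-3p was above miR-29c-3p in 10 of 10 libraries and miR-29b-3p was above it in 9 of 10, the exception being the Trim71-/- library of day 5, where miR-29b-3p stood at the floor. miR-29b-3p and miR-29a-3p were close: miR-29b-3p was the higher in 4 of 5 Trim71fl/fl and 3 of 5 Trim71-/- libraries, and their levels did not separate beyond the spread between libraries.

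miR-29a-3p, the chromosome 6 member, was lower in Trim71-/- on 4 of 5 days. In Trim71-/- its level was 425, 587, 749, 260.2 and 507 on days 1, 3, 4, 5 and 6. In Trim71fl/fl it was 914, 752, 591, 1079 and 832 on the same days. The Trim71-/- libraries of days 1, 3, 5 and 6 lay below the lowest Trim71fl/fl library, and the groups overlapped through day 4, on which Trim71-/- was 1.27 times Trim71fl/fl. The mean was 505 ± 182 in Trim71-/- and 834 ± 182 in Trim71fl/fl (SD, n = 5 each), 1.65 times as high in Trim71fl/fl. The fitted difference on the log2(value + 1) scale was -0.78 (SE 0.39, 95% interval -1.73 to 0.18, limma p = 0.0933, adjusted p = 0.607), and the exact permutation of genotypes within days gave p = 0.125. Without day 5 the difference was -0.46 (limma adjusted p = 0.717).

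miR-29b-3p, which both clusters encode, was lower in Trim71-/- on 4 of 5 days, with a different exception. In Trim71-/- its level was 569.7, 1023, 473 and 675 on days 1, 3, 4 and 6, and on day 5 it stood at the floor of 1. The constant sum puts that corrected value at -212 before the floor, so the 1 is a limit of the correction and not a count of reads. In Trim71fl/fl it was 1172, 719, 1269, 1954 and 1067 on days 1, 3, 4, 5 and 6. The Trim71-/- library of day 3 lay above its partner and the other 4 lay below every Trim71fl/fl library. The Trim71fl/fl library of day 5, the mirror of that low value, was the highest of all. The mean was 548 ± 369.9 in Trim71-/- and 1236 ± 452 in Trim71fl/fl (SD, n = 5 each), 2.25 times as high in Trim71fl/fl. The fitted log2 difference of -2.51 had an SE of 1.55 and a 95% interval of -6.28 to 1.27 (limma p = 0.155, adjusted p = 0.638), and the exact permutation p was 0.125. Much of that size came from the floored library: without day 5 the difference was -0.65 (limma adjusted p = 0.717), and the median of the 5 days was -1.04.

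miR-29c-3p, the least abundant member, was lower in Trim71-/- on 3 of 5 days. In Trim71-/- its level was 1.92, 28.4, 33.7, 8.01 and 21.6 on days 1, 3, 4, 5 and 6. In Trim71fl/fl it was 52.4, 25.9, 20.6, 46.3 and 32.8 on the same days. The 3 low days were those of clone 1, and on both days of clone E3 Trim71-/- was the higher, so that the groups overlapped. The mean was 18.7 ± 13.4 in Trim71-/- and 35.6 ± 13.4 in Trim71fl/fl (SD, n = 5 each). The fitted log2 difference was -1.27 (SE 0.76, 95% interval -3.13 to 0.58, limma p = 0.145, adjusted p = 0.635), with an exact permutation p of 0.375. Without day 1, on which the Trim71-/- value was near the floor, it was -0.54 (limma adjusted p = 0.874).

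**Figure D1:**
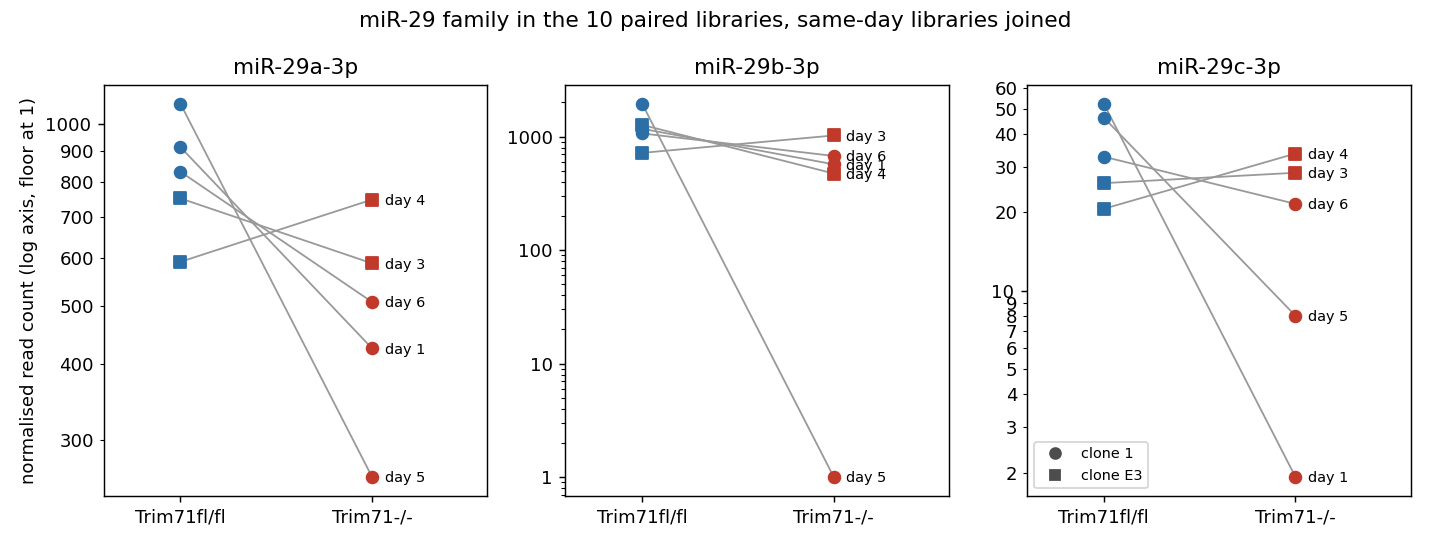
Normalised read count (log axis, a separate axis for each member) of miR-29a-3p, miR-29b-3p and miR-29c-3p in the 10 paired libraries, with a line joining the libraries of 1 day, circles for clone 1 and squares for clone E3. All 3 lines of clone 1 fall from Trim71fl/fl to Trim71-/- in each panel, the drop of miR-29b-3p on day 5 ending at the floor of 1, while the lines of clone E3 rise in 4 cases, for miR-29a-3p on day 4, miR-29b-3p on day 3 and miR-29c-3p on both days.

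Against the study's thresholds, an unadjusted p under 0.05 together with a fold change above 1.5, 0 of 3 members passed, and the 95% intervals of all 3 include both no difference and a level in Trim71-/- lower by over 3-fold. Of the 592 miRNAs 4.56% passed as lower in Trim71-/- (27 miRNAs) and 0.845% as higher (5 miRNAs), and 0% had a limma adjusted p under 0.05, against 32 with an unadjusted p under 0.05. The median log2 difference of the members was -1.27, beside 0.03 over all miRNAs, and it was -0.65 without day 5 and -0.69 without day 1. All 3 fitted values stayed below 0 under each of 3 other scalings, of which division by library totals moved the median of all miRNAs to -0.24 and the members to -1.05, -2.73 and -1.52. The exact permutation has 32 sign patterns for 5 pairs and cannot give a p below 0.062. With the day term left out, which treats mirrored libraries as independent, miR-29a-3p passed the thresholds (limma adjusted p = 0.165), as did 9.97% of all miRNAs as lower. A level lower on at least 4 of 5 days, as for miR-29a-3p and miR-29b-3p, was found in 27.5% of all miRNAs. The labels do not say that the libraries of a genotype came from separate cultures, so the p-values measure the spread between these samples only, and fewer cells with miR-29 cannot be told apart from less miR-29 per cell.

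The members were low together on the days of clone 1. On day 1 the log2 difference was -1.10 for miR-29a-3p, -1.04 for miR-29b-3p and -4.19 for miR-29c-3p. On day 5 it was -2.05 for miR-29a-3p, -2.39 for miR-29c-3p and, set by the floor, -9.93 for miR-29b-3p. Day 6 gave the most even picture, with -0.72, -0.66 and -0.58 for miR-29a-3p, miR-29b-3p and miR-29c-3p. On day 5, 4.90% of all miRNAs had a lower difference than miR-29a-3p and 3.89% a lower one than miR-29c-3p. None had a lower one than miR-29b-3p, whose place on that day rests on the floored value. On day 6 these shares were 19.8%, 23.1% and 21.1%. A level lower in Trim71-/- on all 3 days of clone 1, as each member had it, occurred in 24.2% of all miRNAs.

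On the days of clone E3 the members parted. On day 3 miR-29a-3p differed by -0.36 and miR-29b-3p by 0.51, and on day 4 it was miR-29a-3p that was higher, by 0.34, and miR-29b-3p that was lower, by -1.42. Thus miR-29a-3p and miR-29b-3p went opposite ways on both days. The row of miR-29b-3p pools its copies on chromosome 6 and chromosome 1, so this does not show a split within the cluster on chromosome 6. miR-29c-3p was higher on both, by 0.13 and 0.68. The median difference over all miRNAs on a single day lay between -0.02 and 0.02.

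**Figure D2:**
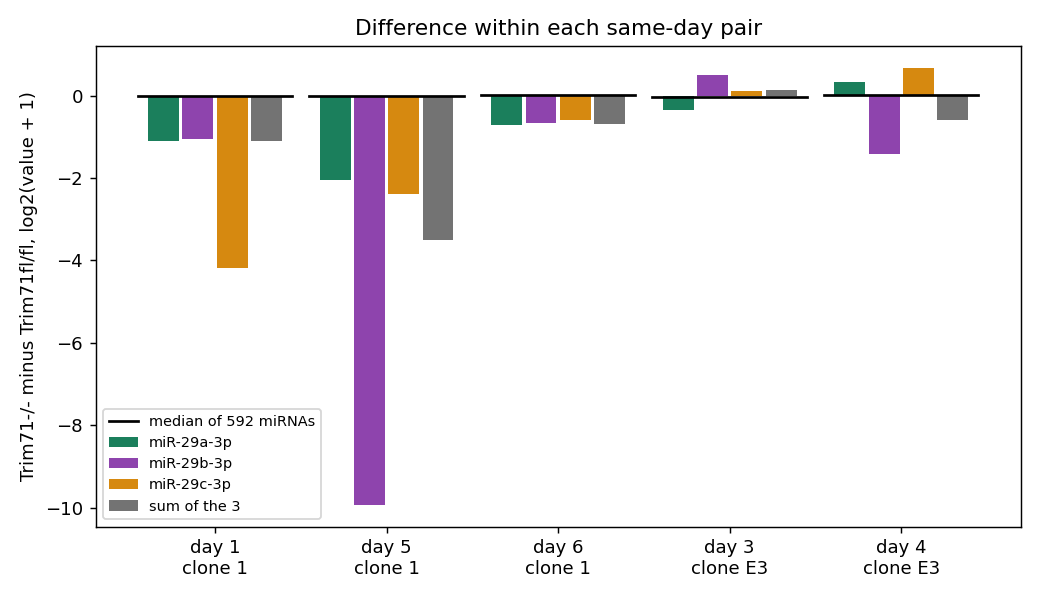
Log2 difference, Trim71-/- minus Trim71fl/fl, within each same-day pair for each member (coloured bars), for their sum (grey bars) and for the median of 592 miRNAs (black line), ordered by clone. Every bar of clone 1 is below 0, and the bars of clone E3 point both ways, between -1.42 and 0.68.

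Fitted by limma on clone 1 alone, the log2 difference was -1.29 for miR-29a-3p (SE 0.41, adjusted p = 0.447), -3.88 for miR-29b-3p (SE 2.24, adjusted p = 0.453) and -2.39 for miR-29c-3p (SE 0.82, adjusted p = 0.447), each lower on 3 of 3 days. miR-29a-3p and miR-29c-3p thus passed the study's thresholds in clone 1, where 7.6% of all miRNAs passed as lower. On clone E3 alone the differences were -0.01, -0.46 and 0.40, with limma adjusted p-values of 0.998, 0.990 and 0.990. The difference between the clones was tested as an interaction of genotype and clone. Clone E3 minus clone 1 was 1.28 for miR-29a-3p (SE 0.66), 3.42 for miR-29b-3p (SE 3.04) and 2.79 for miR-29c-3p (SE 1.14), and the limma adjusted p was between 0.627 and 0.674. The opposite directions of miR-29c-3p, lower on every day of clone 1 and higher on every day of clone E3, were seen in 4.05% of all miRNAs. Each clone is a single line, and days of different clones do not overlap.

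**Figure D3:**
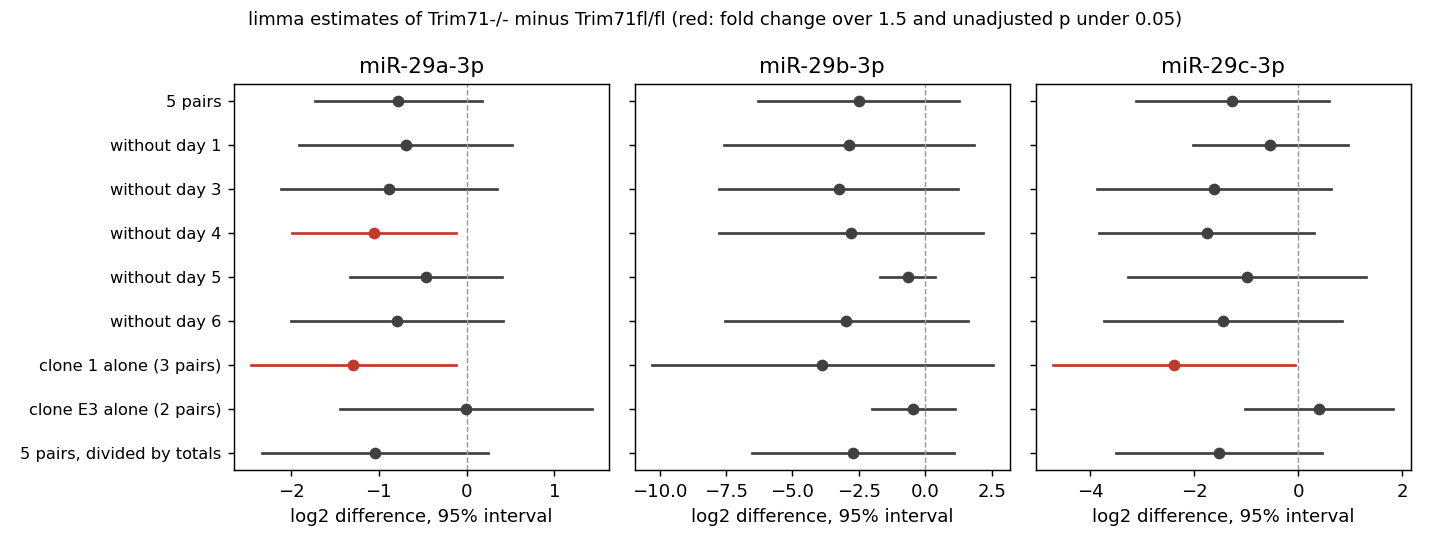
limma estimates of the log2 difference, Trim71-/- minus Trim71fl/fl, with 95% intervals for each member over all 5 pairs, without each day, within each clone and after division by library totals. Red marks estimates past the study's thresholds, reached by miR-29a-3p without day 4 and in clone 1 and by miR-29c-3p in clone 1; in clone E3 the estimates lie between -0.46 and 0.40.

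The 3 members share the seed, and their levels were also added up. In Trim71-/- the sum was 996, 1639, 1255, 269 and 1203 on days 1, 3, 4, 5 and 6. In Trim71fl/fl it was 2139, 1497, 1880.3, 3079 and 1932 on the same days. It was lower in Trim71-/- on 4 of 5 days, all but day 3, and the groups overlapped by that day alone. The mean was 1072 ± 505 in Trim71-/- and 2105 ± 592 in Trim71fl/fl (SD, n = 5 each), 1.96 times as high in Trim71fl/fl. The mean log2 difference was -1.15 ± 1.39 (SD over 5 days, exact permutation p = 0.125, two-sided) and the median -0.68. Without day 5 the mean was -0.56, and it was -1.77 in clone 1 alone and -0.23 in clone E3 alone.

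The make-up of the sum varied between libraries. miR-29c-3p never made up more than 2.98% of it and fell to 0.193% in the Trim71-/- library of day 1. miR-29a-3p made up between 31.4% and 50.2% in Trim71fl/fl. In Trim71-/- it made up between 35.8% and 59.6% on days 1, 3, 4 and 6, and 96.7% on day 5, when miR-29b-3p was at the floor, which sets that share.

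**Figure D4:**
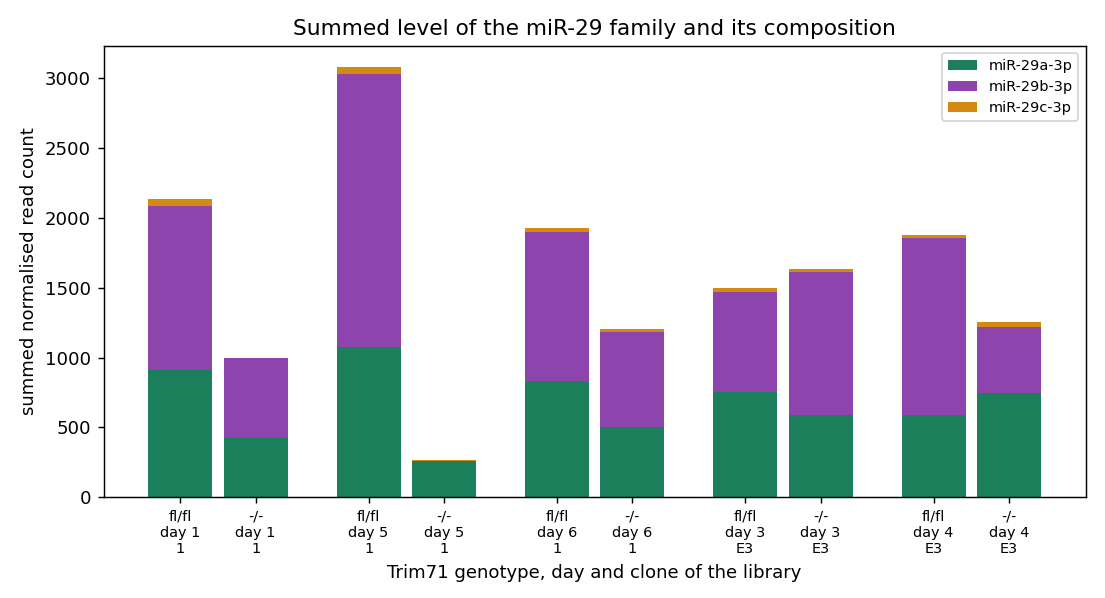
Summed normalised read count of miR-29a-3p, miR-29b-3p and miR-29c-3p (stacked bars) in each paired library, in same-day pairs ordered by clone. The Trim71-/- bar is the shorter in all pairs but day 3, where it stands at 1639 against 1497, and in the Trim71-/- bar of day 5, at 269, miR-29b-3p is at the floor of 1.

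Whether the members differed from each other in their response was tested for 3 pairs of members on the day differences. miR-29a-3p minus miR-29b-3p was 1.73 ± 3.57 (SD over 5 days, exact permutation p = 0.5). miR-29a-3p minus miR-29c-3p was 0.49 ± 1.48 (exact permutation p = 0.812), and miR-29b-3p minus miR-29c-3p was -1.24 ± 3.99 (exact permutation p = 0.688). The adjusted p was 0.812 for each pair, and the day values ranged widely, for miR-29b-3p minus miR-29c-3p from -7.54 on day 5 to 3.15 on day 1. With 5 pairs no difference of any size could have reached p under 0.05 in this test, so it does not show that the members responded alike.

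Across the 10 paired libraries, which mirror each other within a day, Pearson's r of log2(value + 1) was 0.80 between miR-29a-3p and miR-29b-3p, 0.78 between miR-29a-3p and miR-29c-3p and 0.46 between miR-29b-3p and miR-29c-3p. Single low Trim71-/- values weigh on every r of these members. They are the floored miR-29b-3p value of day 5 and the miR-29c-3p value of 1.92 on day 1. The r without them was not computed. For each member, the 5 other miRNAs with the highest r were then picked from the whole table. Their r is high through that choice, so it cannot be compared with the r between members. The 5 nearest to miR-29a-3p were miR-350-3p (r = 0.97), miR-142-3p (0.96), miR-878-3p (0.94), miR-326-3p (0.93) and miR-188-5p (0.93). Those nearest to miR-29b-3p were miR-193a-3p (0.97), miR-466l-3p (0.92), miR-592-5p (0.91), miR-296-5p (0.90) and miR-467d-5p (0.87). Those nearest to miR-29c-3p were miR-297a-5p (0.99), miR-291b-3p (0.99), miR-369-3p (0.98), miR-669b-5p (0.98) and miR-19b-1-5p (0.98). No miRNA stood in more than 1 of these groups. miR-142-3p, known from blood cells, was the only one of the 15 past the study's thresholds. Of all miRNAs 4.56% passed as lower and 0.845% as higher, so this count is no result about the 15. The level of miR-142-3p was 847 ± 381 in Trim71-/- and 1689 ± 381 in Trim71fl/fl (SD, n = 5 each). Its log2 difference was -1.11 (limma adjusted p = 0.607), lower on 4 of 5 days. It no longer passed without any 1 of days 1, 3, 5 and 6, with differences between -1.26 and -0.78, or after division by library totals (-1.38).

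Families known, like miR-29, to be low in pluripotent and high in differentiated cells were set beside it. Of all miRNAs 4.56% passed the study's thresholds as lower and 0.845% as higher, so counts in such short lists say little about them. All 19 let-7 and miR-98 rows had a fitted value above 0 (median 1.73; 18 of 19 after division by library totals), and 1 passed the study's thresholds, let-7e-5p, with 891 ± 129 in Trim71-/- and 409 ± 129 in Trim71fl/fl (SD, n = 5 each; log2 difference 1.18, limma adjusted p = 0.607), higher on 5 of 5 days. The list rested on day 6, on which 16 rows stood at the floor in Trim71fl/fl, and the summed let-7 level differed by 6.96 on the log2 scale on that day and by 0.06 to 0.54 on the others. Without day 6 the median was 0.33. The most abundant, let-7g-5p and let-7f-5p, had fitted log2 differences of 3.06 and 2.97 (limma adjusted p = 0.645 for both). Of 11 miR-30 rows none passed in either direction (median 0.01), with miR-30a-5p, the most abundant, at -0.09 (limma adjusted p = 0.939). Of 4 miR-26 rows none passed (median -0.12), with miR-26a-5p at 0.20 (limma adjusted p = 0.716) and miR-26b-5p at -0.45 (limma adjusted p = 0.645).

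Other miRNAs known to act on DNA methyltransferase, TET or thymine DNA glycosylase mRNAs (miR-148, miR-152, miR-101, miR-26, miR-22 and miR-143) made up 17 rows, of which 0 passed in either direction by limma. The shares over all miRNAs were 4.56% as lower and 0.845% as higher. Their median log2 difference was -0.05, beside -1.27 for the miR-29 members (-0.65 without day 5 and -0.69 without day 1) and 0.03 over all miRNAs. In clone 1 alone it was 0.27, beside -2.39 for miR-29. In clone E3 alone the order turned, with -0.34 beside -0.01. The most abundant were far above miR-29: miR-148a-3p had 160926 ± 48672 in Trim71-/- and 143704 ± 48672 in Trim71fl/fl (SD, n = 5 each), with a log2 difference of 0.17 (limma adjusted p = 0.862). miR-22-3p differed by -0.04 (SE 0.96, limma adjusted p = 0.991). It was lower in Trim71-/- on 1 of 5 days, with a mean of 27519 there and 24022 in Trim71fl/fl.

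Since miR-29 is known to be abundant in fibroblasts and other differentiated cells, markers of other cell types were set beside it. With 4.56% of all miRNAs passing as lower and 0.845% as higher, the counts passing in these short lists say little about the cell types. Of 13 fibroblast rows 0 passed the thresholds by limma, and their summed level was between 279093 and 859528 in Trim71-/- and between 38197 and 414163 in Trim71fl/fl. It was higher in Trim71-/- on 4 of 5 days, and by 4.49 on the log2 scale on day 5, the day of the largest miR-29 difference, on which miR-21a-5p, the most abundant of them, and miR-10b-5p were at the floor in Trim71fl/fl. The sum of all 592 miRNAs was also higher in Trim71-/- on 4 of 5 days, by 1.02 on day 5, and the median over the fibroblast rows was 0.21, or -0.06 after division by library totals. Of 8 neural rows 0 passed (median 0.55), with a sum between 5927 and 9249 in Trim71-/- and between 3393 and 6715 in Trim71fl/fl. Of 5 blood rows 1 passed, miR-142-3p, as lower (median -0.87). Their sum was between 1149 and 2864 in Trim71-/- and between 2319 and 4077 in Trim71fl/fl. The log2 difference of this sum was -1.83, -0.38, 0.30, -1.73 and -0.40 on days 1, 3, 4, 5 and 6. The miR-29 sum had the same sign on days 1, 5 and 6 and the opposite sign on days 3 and 4, at 0.13 and -0.58. One value of the blood list was at the floor, that of miR-142-5p in Trim71-/- on day 1. The 2 muscle rows had sums between 105 and 178 in Trim71-/- and between 103 and 175 in Trim71fl/fl. Of the 27 mES cell rows 0 passed by limma. After division by library totals 2 of them passed as lower, as did 48 of all 592 miRNAs. Without the day term 3 mES cell rows and 2 blood rows passed as lower, and 2 neural rows and 1 fibroblast row as higher. In that setting 9.97% of all miRNAs passed as lower and 42 of the 592 as higher. What part any of these cell types had in the miR-29 values was not tested.

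**Figure D5:**
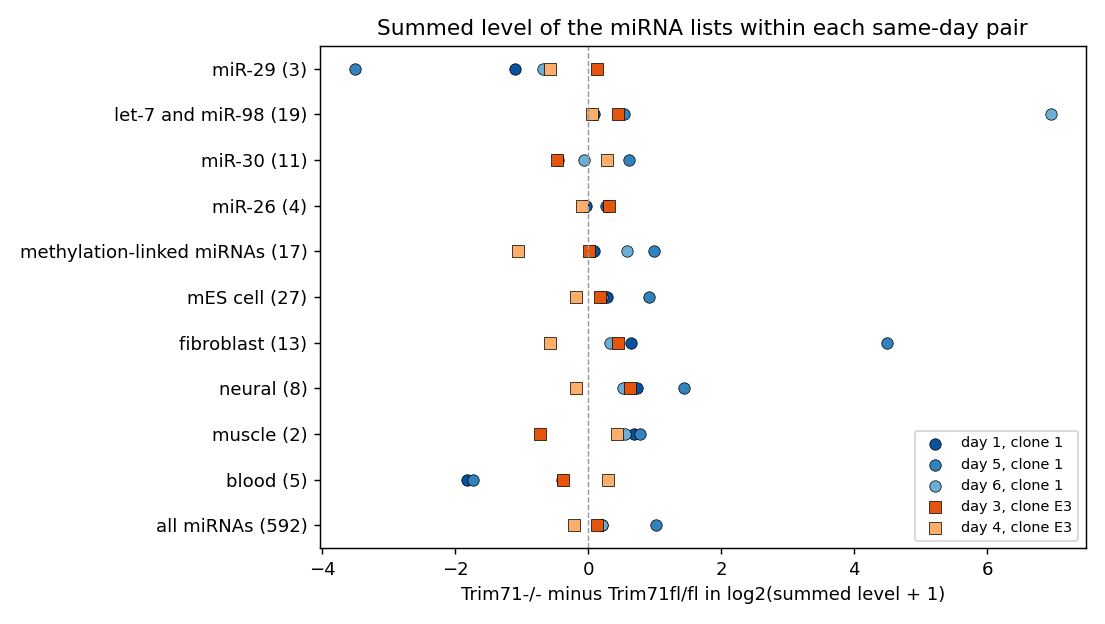
Log2 difference, Trim71-/- minus Trim71fl/fl, of the summed level of each miRNA list (number of rows in parentheses) within each same-day pair, circles for clone 1 and squares for clone E3. The miR-29 sum lies furthest below 0 on day 5 at -3.51, where the fibroblast list lies at 4.49, and the let-7 list lies at 6.96 on day 6.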

How the data were processed

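miRNA sequencing of 5 Trim71-/- and 6 Trim71fl/fl mES cell libraries was analysed. Per the study's methods, libraries came from a small RNA kit (the labels name a TruSeq RNA kit), and reads were trimmed with FLICKR and aligned to miRBase with Bowtie2 2.2.1. The submitters' processing notes also name CASAVA 1.8, DESeq2, Partek 6.6 and mm10. The deposited values are a signal, which the authors made from read counts by DESeq2 normalisation and a batch correction; they set values under 1 to 1 and kept miRNAs with a group mean of at least 10. Raw counts were not used here, so the depth of each library is unknown, no counting interval was given, and precision rests on 5 pairs. The labels give 500 nM 4-hydroxytamoxifen, while the study's methods give another dose.

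From these values log2(value + 1) was fitted with genotype and day over all 592 miRNAs by limma 3.58.1 in R 4.3.3, with Benjamini-Hochberg adjustment; the interaction of genotype and clone was fitted likewise. Single values were tested by exact two-sided permutation of genotypes within days. Day pairs the libraries by the labels. Deviations of same-day libraries correlated between -0.65 and -0.41. The genotype fit was tested on simulated data with large known differences, while the interaction and the permutations were not. For the text, every miR-29 row was named, with the 5 miRNAs most alike in Pearson's r for each and, from each list, the members past the thresholds and 2 or 3 of the most abundant. The lists overlap in miR-22, miR-26 and miR-143. Members and lists were chosen with earlier results of these data known. Alternatives were the pairing, leaving out each day, each clone alone, scaling, pseudocount, the log scale, the floor, a trend in limma and a filter on low values. Sequences came from RefSeq and gene overlaps from GENCODE M21; tables and plots used Python 3.11.15, pandas 2.3.3 and matplotlib 3.10.9.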

Additional observations from a re-analysis of the deposited data

Results flagged for a closer look

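Outlying libraries were looked for in 8 groups of 5 libraries, the 3 members and their sum in both genotypes, on the log2 scale. On that scale the Trim71-/- library of day 5 stood apart in 2 of them. For miR-29b-3p, at the floor of 1 there against 473 or more in the other 4, the gap to the nearest library was 0.876 of the group's range. For the sum, at 269, it was 0.724 of the range, and both hold the same miR-29b-3p value. Both rest on the log scale and the floor: on the untransformed values, a check chosen after seeing the data, the gaps were 0.462 and 0.531 of the range, and the library did not stand apart in either by the same limit of 0.71. Chance alone would pick out about 1 group in 20. Without day 5 the log2 difference was -0.65 for miR-29b-3p, -0.46 for miR-29a-3p and -0.99 for miR-29c-3p.

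miR-29c-3p went opposite ways in the 2 clones, lower in Trim71-/- on all 3 days of clone 1 and higher on both days of clone E3. Clone E3 minus clone 1 was 2.79 on the log2 scale, and the interaction did not pass the threshold (limma adjusted p = 0.627). An unadjusted interaction p under 0.05 was found for 33 of the 592 miRNAs.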

How the results depend on the processing

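The deposited values allow no check of depth, and 2 clones on 5 days limit every comparison. Without a replicate block, that is with the mirrored same-day libraries taken as independent, miR-29a-3p passed the study's thresholds at -0.78 (limma adjusted p = 0.165), and at -0.78 with all 11 libraries (limma adjusted p = 0.0865), so that 1 of 3 members passed each time. The summed level then had exact permutation p-values of 0.0159 (log2 difference -1.15) and 0.00433 (-1.16), the latter with the day 2 library, which holds no measurement of its own, counted as a sample. Without the block 59 miRNAs passed as lower and 42 as higher, and with all 11 libraries 71 and 45. Leaving out 1 day in turn gave -1.06 to -0.46 for miR-29a-3p, past the thresholds without day 4 (limma adjusted p = 0.385), -3.26 to -0.65 for miR-29b-3p, -1.76 to -0.54 for miR-29c-3p, 0 to 1 members passing, and 11 to 44 miRNAs passing as lower (11 without day 1, 15 without day 6, 44 without day 4) and 4 to 23 as higher (8 without day 5, 23 without day 4).

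In clone 1 alone miR-29a-3p at -1.29 and miR-29c-3p at -2.39 passed, 2 of 3 members, with a median over members of -2.39, and 45 miRNAs passed as lower and 14 as higher. In clone E3 alone miR-29c-3p reversed to 0.40, the median was -0.0076 and 28 miRNAs passed as lower and 8 as higher. Division by library totals gave 48 miRNAs lower and 2 higher; totals without miR-290 to miR-295 gave 43 and 2. A pseudocount of 10 gave 8 miRNAs as higher, untransformed values 9, and values before the floor 9; the filter at a mean of 100, which drops miR-29c-3p, gave 10 as lower. The causes were not tested. miR-29b-3p stayed below 0 and short of the thresholds under all 18 alternatives, between -3.88 and -0.46. Adjusted p-values over the alternatives ranged from 0.0865 to 0.998 for miR-29a-3p, 0.252 to 0.990 for miR-29b-3p and 0.183 to 0.990 for miR-29c-3p. The pair and clone comparisons were run under 1 setting only.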
